A study of Mus musculus with 2 samples.

Results

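The PYHIN genes are a family of interferon-inducible genes that lie side by side on mouse chromosome 1. The 9 members described here, Ifi203, Ifi204, Ifi205, Ifi207, Ifi208, Ifi209, Ifi211, Ifi213 and Mndal, were taken by symbol from the 32285 genes of the count matrices, and each symbol belonged to a single gene identifier. They were selected on measured values: earlier results of the same data had shown donor over recipient differences of members in endothelial types. Their donor and recipient values, and their values in the different cell types, are therefore a description and were not tested.

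The study looked for a progenitor cell that can rebuild lung tissue after transplantation. C57Bl mice received a suspension of single cells marked with the red fluorescent protein tdTomato, and the chimeric lungs were taken 6 months later. Lungs of 3 mice were pooled and sorted for live cells without CD45, a surface protein of leukocytes: cells with tdTomato gave the donor library and cells without it gave the recipient library. Both libraries thus come from the same transplanted lungs, each group is 1 pooled library without a replicate, and a lung without a transplant was not analysed here. The strain, sex and age of the donors and any conditioning of the recipients are not given in the sources used here.

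The donor matrix held 6319 barcodes with a median of 5433 unique molecular identifiers (UMIs, each standing for 1 captured RNA molecule), and the recipient matrix held 3784 with a median of 6056.5. The libraries shared 816 barcodes, and 728 of these had over 5 times fewer UMIs with the donor sort than with the recipient sort, so they were left out of both libraries. After the cell filter 4812 donor-library and 2590 recipient-library cells remained. Cells were assigned to types by the UMIs of marker genes. General capillary cells (Gpihbp1, Plvap, Aplnr), the common capillary endothelium of the lung, numbered 2584 in the donor library against 413 in the recipient library. Aerocytes (Ednrb, Apln, Car4, Fibin), the thin capillary cells of gas exchange, numbered 1568 and 623. Venous cells numbered 159 and 99, arterial cells 68 and 23, and lymphatic cells 5 and 61. Mesenchymal cells were scarce in the donor library, which held 45 pericytes, 4 alveolar fibroblasts and 0 myofibroblasts, against 476, 522 and 117 in the recipient library. The median general capillary cell carried 64 UMIs of the shared endothelial markers in either library, and 0 UMIs of the mesenchymal, epithelial and leukocyte markers. The gate was set on these same markers, so the low values follow largely from it.

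PYHIN proteins take their name from a pyrin domain, which binds other pyrin domains, and a HIN domain, which binds DNA. Several of them sense DNA in the cytosol or nucleus and pass the signal to inflammasomes or to interferon production, and others regulate transcription. Interferons induce most of the genes, and endothelial cells, which line the vessels and meet circulating interferon, are among the cells that express them.

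On the mm10 genome the 9 members lay between positions 173566283 and 174031810 of chromosome 1, a span of 466 kb. By the GENCODE annotation all are protein-coding genes. Ifi209 and Ifi208 lie on the plus strand and the other 7 on the minus strand. The order along the chromosome is Ifi213, Ifi209, Ifi208, Ifi207, Ifi204, Mndal, Ifi211, Ifi203 and Ifi205. Ifi204 occupies chr1:173747293-173766943, Ifi208 chr1:173673675-173698395 and Ifi213 chr1:173566283-173599274. Mndal is annotated at chr1:173849126-173942491 and there overlaps Ifi211 and Ifi203 on the same strand, so reads from shared exons cannot be given to 1 of these genes. Close copies also share sequence near the end of their transcripts. Of the 91-base stretches in the last 500 bases, 59.02% of those of Ifi211 also occur in another gene, Ifi205 or Mndal. The share was 36.8% for Ifi209 (with Ifi214), 29.5% for Ifi205, 9.12% for Mndal, 7.64% for Ifi208 and 7.31% for Ifi213, and it was 0 for Ifi204 and Ifi207. Values of Ifi211, Ifi209 and Ifi205 are uncertain for this reason.

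The promoters show how alike the members are at their starts. RefSeq promoters (GRCm38.p6, 250 bases before to 50 after the gene start) were matched for 8 of the 9 members, and Ifi204 had no entry. The motif of GAAA and GAAA separated by 2 bases of any kind, the core of the interferon-stimulated response element, was searched on both strands and was found in 7 of the 8, the exception being Ifi209. It occurs in 3.44% of all 32851 promoters of that length. That share counts single promoters, whereas a member was counted when any of its promoters matched. Mndal and Ifi203 had 2 promoters each, and the motif was in both of Mndal and in 1 of Ifi203. The motif TTCNNNGAA, the core of the gamma-activated site, occurs in 8.30% of all promoters and was found in none of the 8, so the motifs did not overlap. The windows of 5 members are shown because they are alike or the same, while the values below go the same way for Ifi213 and Ifi208 and opposite ways for Mndal and Ifi203. Capitals mark the motif, and each sequence runs 5′ to 3′ on the strand of its gene.
Ifi213: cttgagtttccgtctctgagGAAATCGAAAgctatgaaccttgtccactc
Ifi208: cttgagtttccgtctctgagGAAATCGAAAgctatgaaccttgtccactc
Mndal: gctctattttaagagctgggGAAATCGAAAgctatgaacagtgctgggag
Ifi203: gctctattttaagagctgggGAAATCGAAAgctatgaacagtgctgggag
Ifi211: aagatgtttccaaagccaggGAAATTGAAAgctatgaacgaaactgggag
The Ifi213 window lies at chr1:173599316-173599365 on the minus strand, 73 bases from the start of the motif to the gene start. The Ifi208 window lies at chr1:173673587-173673636 on the plus strand, at 58 bases. The Mndal window lies at chr1:173880194-173880243, the Ifi203 window at chr1:173942498-173942547 and the Ifi211 window at chr1:173913054-173913103, all on the minus strand and at 36, 35 and 37 bases. The Ifi213 and Ifi208 windows are the same, as are those of Mndal and Ifi203. Over the aligned promoter, Ifi213 and Ifi208 were identical at 282 of 285 positions (98.9%), and Mndal and Ifi203 at 94.3% for the promoters whose windows are shown. RefSeq places the start of Mndal outside Ifi211 and Ifi203, whereas GENCODE extends it across both. A match describes the letters only and does not show that a factor binds.

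General capillary cells showed the switch between members. Ifi204 was high in the recipient library and low in the donor library, while Ifi208, Ifi213 and Mndal were the reverse. Levels are given as CPM, the UMIs of a gene scaled to all UMIs of the cell type, with an exact 95% Poisson interval, and all intervals in the text cover counting error only. In bulk sums of a cell type, fewer expressing cells and less RNA per cell cannot be told apart, so shares of cells are given too.

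Ifi204 encodes a PYHIN protein known as a sensor of foreign DNA, the mouse relative of human IFI16. In general capillary cells it stood at 35.9 CPM (32.9 to 39.1; 526 UMIs) in the donor library and 334 CPM (311 to 358; 795 UMIs) in the recipient library. The intervals lie far apart, and the recipient level was 9.30-fold higher (8.32 to 10.4). The share of cells with at least 1 Ifi204 UMI was 11.8% in the donor library against 72.2% in the recipient library, at median depths of 5357 and 5464 UMIs. After each cell was thinned to 2000 UMIs, which left out shallower cells and kept 2561 and 411, the shares were 5.19% and 42.8%. In recipient-library myofibroblasts, where the gene was near absent, 0.855% of cells had a UMI at a median of 5946 UMIs.

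Ifi208 encodes a PYHIN protein whose function is less studied. It stood at 58.7 CPM (54.9 to 62.8; 861 UMIs) in donor-library general capillary cells and at 5.04 CPM (2.60 to 8.80; 12 UMIs) in those of the recipient library. The donor level was 11.7-fold higher (6.64 to 22.7). A UMI was found in 24.5% and 2.42% of the cells. The recipient share (1.17% to 4.41%) lay above that of recipient-library pericytes (0.210%, up to 1.16%) and alveolar fibroblasts (0.192%, up to 1.06%), and overlapped that of the fewer myofibroblasts (0.855%, up to 4.67%). Median depths in these types were 4942.5, 5594.5 and 5946 UMIs. Ifi213, the near copy of Ifi208 in its promoter, stood at 30.0 CPM (27.3 to 33.0; 440 UMIs) in the donor library and had 0 UMIs in the recipient library, where 3 counts would be 1.26 CPM. With that floor over the group, the donor level was at least 23.8-fold higher, and the counting interval of this ratio ran from 8.10 to 116. An Ifi213 UMI was found in 14.2% of donor-library cells and in 0 of the 413 recipient-library cells, which limits cells with a UMI and not cells that express the gene.

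Mndal, related to the human myeloid nuclear differentiation antigen, differed less in ratio than Ifi204, Ifi208 or Ifi213. It stood at 195 CPM (188 to 202) in the donor library and 56.7 CPM (47.5 to 67.1) in the recipient library, a 3.44-fold difference (2.90 to 4.12). A UMI was found in 58.0% and 25.7% of the cells, and after thinning in 30.3% and 10.2%. Mndal therefore remained detectable in recipient-library cells, in which Ifi213 was not.

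Ifi203, which overlaps Mndal in the annotation, went the other way from Mndal and by less. It stood at 239 CPM (231 to 247) in the donor library and 398 CPM (373 to 424) in the recipient library, 1.66-fold higher in the latter (1.55 to 1.79). Ifi211 stood at 2.39 CPM (1.66 to 3.32; 35 UMIs) and 7.14 CPM (4.16 to 11.4; 17 UMIs), 2.99-fold higher in the recipient library (1.57 to 5.48). That value rests on few UMIs of a gene that shares most of its 3′ sequence. Ifi207 stood at 3.82 and 3.78 CPM, a ratio of 1.01 with an interval from 0.496 to 2.33. Ifi209 had 35 donor-library UMIs and 0 recipient-library UMIs, and the interval of its ratio with the floor of 3 counts, 0.598 to 9.63, included 1. Ifi205 had 2 and 0 UMIs, too few for a ratio.

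A gene was counted as higher in 1 library when the levels were at least 2-fold apart, the interval excluded 1.5-fold and the 2 libraries together held at least 20 UMIs. By this rule 3 of the 8 members with enough UMIs in general capillary cells were higher in the donor library (Ifi208, Ifi213, Mndal), where 0.908% of all 12115 genes were. The recipient library was higher for 2 of the 8 (Ifi204, Ifi211), where 2.41% of all genes were. Because this contrast chose the members, nothing is read from these shares. The call for Ifi211 was lost in 3 of 9 alternative settings, in which 1 member, Ifi204, was higher in the recipient library. The median log2 ratio of the 8 members was 0.47, beside 0.0055 over all genes, and with members on both sides it describes none of them well.

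In aerocytes the same genes stood at nearly equal levels in the 2 libraries. Ifi204 stood at 173 CPM (166 to 180) in the donor library and 158 CPM (147 to 169) in the recipient library, a ratio of 1.10 (1.01 to 1.19). Ifi208 stood at 79.9 CPM (75.3 to 84.6) and 81.3 CPM (73.4 to 89.8), and the donor over recipient log2 ratio was -0.03 (-0.19 to 0.15). Ifi213 stood at 6.34 CPM (5.11 to 7.79) and 6.53 CPM (4.43 to 9.26). These intervals overlap for Ifi204, Ifi208 and Ifi213, and the gap for Ifi204 is small beside that in general capillary cells. Mndal stood at 60.8 CPM (56.9 to 65.0) and 59.6 CPM (52.8 to 66.9), and Ifi203 at 363 CPM (353 to 373) and 440 CPM (421 to 459). The Ifi203 intervals lie apart, with the recipient level 1.21-fold higher (1.15 to 1.28). Ifi207 and Ifi211 lay between 3.69 and 4.25 CPM in both libraries, Ifi209 had 23 and 4 UMIs, and Ifi205 had 4 and 0. Of the 8 members with enough UMIs in aerocytes, 0 were higher in the donor library, where 0.342% of all 11711 genes were, and 0 in the recipient library, where 1.38% were (1.72% in either direction), and their log2 ratios had a median of -0.0057. The shares of aerocytes with a UMI were 67.1% and 58.3% for Ifi204 and 46.9% and 40.8% for Ifi208. These cells were deeper in the donor library (median 8898 UMIs) than in the recipient library (7578), and after thinning the shares were 28.3% and 24.5%, and 14.0% and 14.9%.

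Venous cells followed the general capillary pattern with fewer UMIs. The venous gate did not exclude general capillary markers. Their median was 28 UMIs in donor-library and 20 in recipient-library venous cells, against 33 and 31 in general capillary cells. Venous markers had medians of 35 and 38 UMIs in venous cells, against 3 and 1 in general capillary cells. Ifi204 stood at 87.8 CPM (73.6 to 104) in the donor library and 247 CPM (214 to 284) in the recipient library, 2.81-fold higher in the latter (2.25 to 3.53). Ifi208 stood at 36.7 CPM (27.7 to 47.7; 56 UMIs) and 4.89 CPM (1.33 to 12.5; 4 UMIs), 7.50-fold higher in the donor library (2.77 to 28.5). Ifi213 had 24 UMIs against 1, a ratio of 12.9 with a counting interval from 2.10 to 529. These directions match those of general capillary cells, with wider intervals. Mndal stood at 124 CPM (107 to 143) and 45.3 CPM (31.9 to 62.4), 2.74-fold higher in the donor library (1.92 to 4.01), and Ifi203 at 215 CPM (192 to 240) and 289 CPM (253 to 328). In venous cells 3 of 5 members with enough UMIs were higher in the donor library, where 1.14% of all 8999 genes were. The recipient library was higher for 1 of 5, where 0.978% of all genes were. The median log2 ratio of these 5 was 1.45, beside 0.056 over all genes tested. Differences of this kind chose the members, so nothing is read from these shares or this median. The 4 members below 20 UMIs in venous cells, Ifi205, Ifi207, Ifi209 and Ifi211, had at most 7 UMIs in a library.

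Arterial cells were too few for a comparison by the rule of 50 cells per library, so only values are given. Ifi204 had 44 UMIs in 68 donor-library cells (81.4 CPM, 59.1 to 109) and 101 UMIs in 23 recipient-library cells (653 CPM, 532 to 794). Ifi208 had 26 UMIs (48.1 CPM) and 0 UMIs, Ifi213 had 12 and 0, and Mndal stood at 183 CPM (149 to 223) and 58.2 CPM (26.6 to 110). The levels of Ifi204 and Mndal did not overlap in their intervals, while 3 counts, the floor used for a count of 0, would be 19.4 CPM in recipient-library arterial cells.

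**Figure D1:**
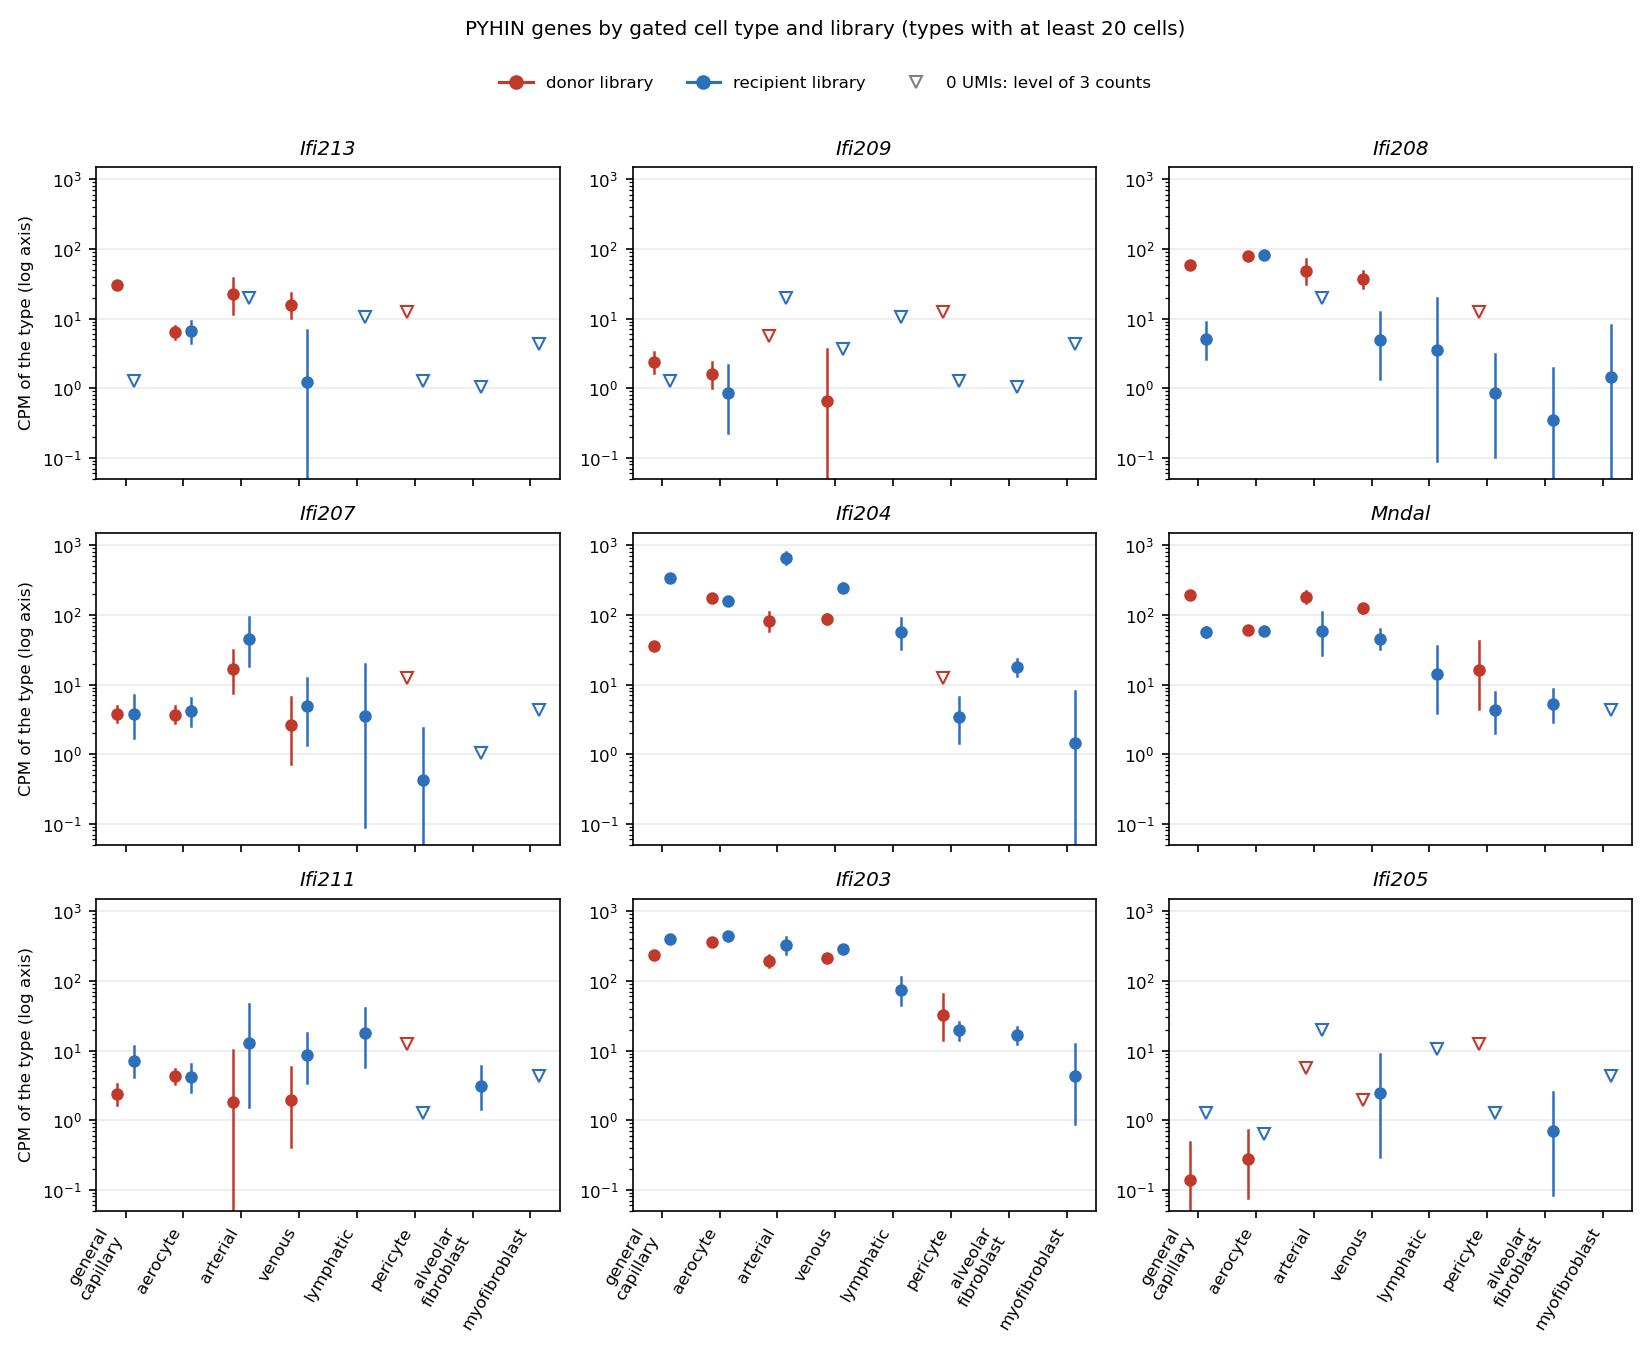
Level of each of the 9 genes (CPM of the summed UMIs, log axis) in the cell types with at least 20 cells, with donor-library points in red and recipient-library points in blue. Bars are exact 95% Poisson intervals, cut at the lower end of the axis, and open triangles mark 0 UMIs at the level that 3 counts would give. Donor and recipient points lie far apart for Ifi204, Ifi208 and Ifi213 in general capillary cells and close together in aerocytes.

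Within each library the step from general capillary cells to aerocytes differed. In the donor library Ifi204 was 4.82-fold higher in aerocytes (4.39 to 5.31), whereas Ifi213 was 4.73-fold (3.77 to 6.00) and Mndal 3.21-fold (2.97 to 3.46) higher in general capillary cells. In the recipient library Ifi204 was 2.12-fold higher in general capillary cells (1.91 to 2.34), and Ifi208 was 16.1-fold higher in aerocytes (9.13 to 31.5). Ifi213, with 31 UMIs in recipient-library aerocytes and 0 in general capillary cells, was at least 5.18-fold higher in aerocytes with the floor of 3 counts (counting interval 1.62 to 26.5). The order of the capillary types was thus opposite in the libraries for Ifi204 and Ifi213. Mndal had a ratio of 1.05 between the types in the recipient library (0.853 to 1.30), and Ifi208 stood 1.36-fold higher in aerocytes of the donor library (1.24 to 1.49), short of the 2-fold rule. Among members with enough UMIs, the donor library had 1 of 8 called higher in aerocytes and 2 of 8 in general capillary cells, where 7.3% and 15.3% of all genes were. The recipient library had 2 of 7 called higher in aerocytes and 1 of 7 in general capillary cells, where 6.44% and 11% of all genes were. Differences between these types are common over all genes, and no test of the difference in steps was possible with 1 library per group.

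Ordered by level over all types with at least 20 cells, Ifi204 ran from recipient-library arterial cells (653 CPM) through recipient-library general capillary (334 CPM) and venous cells (247 CPM) to the aerocytes of both libraries. Each of the first 3 differed from the next beyond its interval, while the 2 aerocyte sums overlapped. The donor-library general capillary sum came ninth for Ifi204. Ifi208 was led by the aerocytes of both libraries, which overlapped, followed by donor-library general capillary, arterial and venous cells, which overlapped from neighbour to neighbour, and then by a gap to recipient-library general capillary cells. Ifi213 was led by donor-library general capillary, arterial and venous cells, overlapping from neighbour to neighbour, and then by the aerocytes. Mndal was led by donor-library general capillary and arterial cells, which overlapped, then by donor-library venous cells, and 5 sums followed from 60.8 to 45.3 CPM with overlapping intervals.

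Outside the blood vessel endothelium most members were lower. In recipient-library lymphatic cells Ifi203 stood at 74.0 CPM (45.8 to 113) and Ifi204 at 56.3 CPM (32.2 to 91.5), and Ifi208 had 1 UMI. Ifi211 was not lower there, at 17.6 CPM (5.72 to 41.1) from 5 UMIs, against 7.14 CPM (4.16 to 11.4) in recipient-library general capillary cells. In recipient-library pericytes Ifi203 stood at 19.6 CPM (14.3 to 26.1) and Ifi204 at 3.40 CPM (1.47 to 6.70). In recipient-library alveolar fibroblasts Ifi204 stood at 17.96 CPM (13.4 to 23.6) and Ifi203 at 16.6 CPM (12.2 to 22.0), above the pericyte interval for Ifi204. The 45 donor-library pericytes had 8 Ifi203 UMIs (32.7 CPM, 14.1 to 64.4), 4 Mndal UMIs and 0 UMIs of the other 7 members. At 3 counts the floor there is 12.3 CPM, so the switch seen in general capillary cells was not detectable in pericytes at this depth. Alveolar fibroblasts and myofibroblasts could not be compared between libraries, because the donor library held 4 and 0 of them. With shared barcodes kept it held 8 alveolar fibroblasts. Adventitial fibroblasts, which surround larger vessels, numbered 1 in the donor library against 8 in the recipient library, and those 8 held 14 UMIs of the members, a sum of 291 CPM (159 to 487). With shared barcodes kept there were 25 recipient-library adventitial fibroblasts, 17 of them with a shared barcode. In these 25 cells Ifi204 stood at 72.2 CPM (44.1 to 111), Ifi211 at 64.9 CPM (38.5 to 103), Ifi205 at 54.1 CPM (30.3 to 89.3) and Ifi207 at 36.1 CPM (17.3 to 66.3), and Ifi208 and Ifi213 had 0 UMIs. Ifi205, with at most 4 UMIs in any endothelial sum, had 15 UMIs there. Summed over the 9 genes, UMIs came to 567 CPM (donor) and 804 CPM (recipient) in general capillary cells, 693 and 754 CPM in aerocytes, and 484 and 603 CPM in venous cells. In the few arterial cells the sums lay further apart, at 548 CPM (487 to 614) and 1093 CPM (934 to 1271). In pericytes the sums were 49.0 and 28.5 CPM, and in recipient-library myofibroblasts the sum was 7.15 CPM. The summed level of the members in general capillary cells therefore differed far less between libraries than that of Ifi204, Ifi208 or Ifi213 alone. That sum adds members that went opposite ways, and Ifi203 held more of its UMIs than any other member in both libraries.

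The same UMIs were then viewed cell by cell, which restates the sums above and adds no independent support. Cells were sorted by whether they held a UMI of Ifi204 and whether they held one of Ifi208, Ifi213 or Mndal, a set chosen after its values had been seen. Of donor-library general capillary cells, 4.37% held Ifi204 only, 62.9% the set only, 7.47% both and 25.3% neither. Of recipient-library general capillary cells, 50.6% held Ifi204 only, 5.81% the set only, 21.5% both and 22.0% neither. Venous cells were alike, with the set only in 55.3% of donor-library and 5.05% of recipient-library cells and Ifi204 only in 17.0% and 58.6%. In aerocytes the libraries were close: 47.7% and 37.9% of cells held both, 19.4% and 20.4% Ifi204 only, and 19.2% and 23.3% the set only. Many aerocytes therefore carried RNA of Ifi204 and of the set at once in either library.

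**Figure D2:**
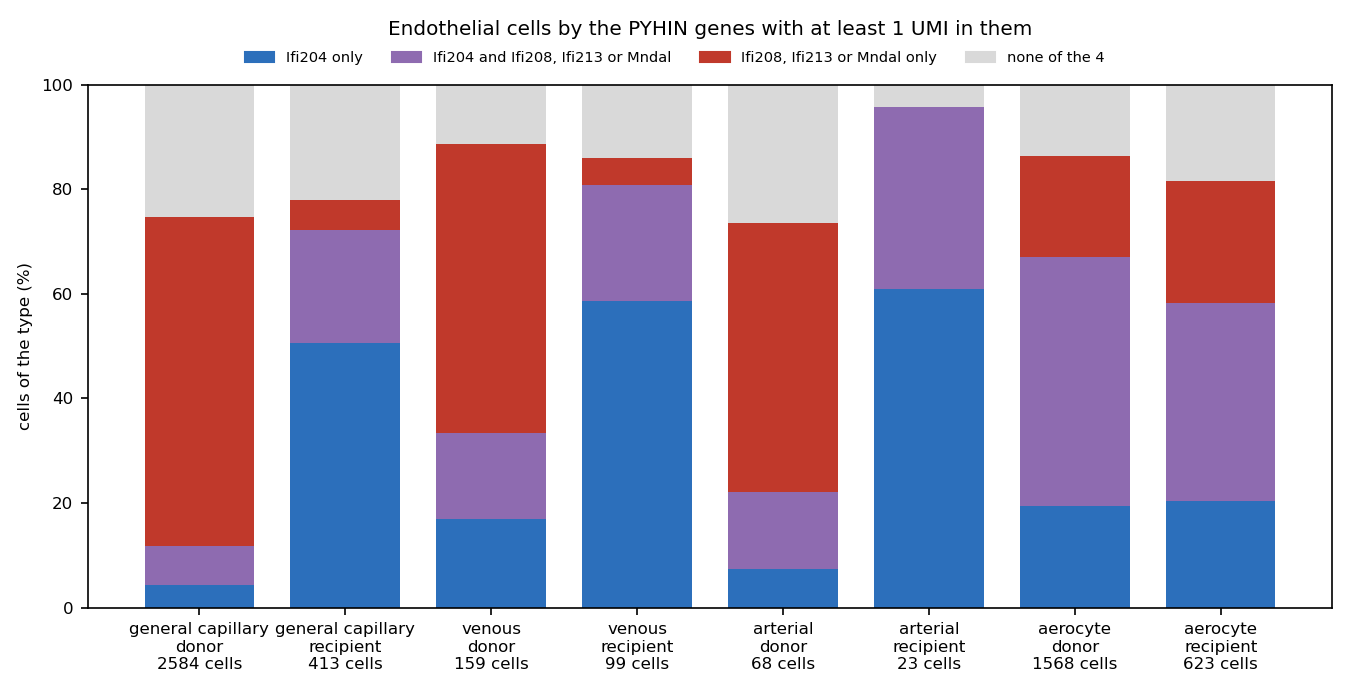
Share of cells (%) with at least 1 UMI of Ifi204 only, of Ifi208, Ifi213 or Mndal only, of both, or of none, for each endothelial type and library, with the number of cells under each bar. The set-only share is 62.9% in donor-library and 5.81% in recipient-library general capillary cells, and the 2 aerocyte bars are close to each other.

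A minority of donor-library general capillary cells held several Ifi204 UMIs. Of the 2584 cells, 2278 held 0 Ifi204 UMIs, 216 held 1 and 90 held 2 or more (3.48%), a split made after the values had been seen. The 90 cells had a median depth of 6590 UMIs, against 5318 for the cells at 0. In the 90 cells Ifi208 stood at 22.2 CPM (12.1 to 37.3), Ifi213 at 7.94 CPM (2.58 to 18.5) and Mndal at 117 CPM (92.2 to 147). In the cells at 0 these genes stood at 58.6 CPM (54.4 to 62.9), 30.8 CPM (27.8 to 34.0) and 195 CPM (187 to 202). Ifi203 ran the other way, at 378 CPM (331 to 429) in the 90 cells and 224 CPM (216 to 232) in the cells at 0. The intervals of all 4 genes lie apart, and the values of the 90 cells lie between those of the cells at 0 and those of recipient-library general capillary cells. In the recipient library 208 cells held 2 or more Ifi204 UMIs and 115 held 0. Mndal stood at 67.8 CPM (54.2 to 83.9) in the former and 54.9 CPM (38.0 to 76.8) in the latter, with overlapping intervals. Ifi203 stood at 424 CPM (389 to 462) and 341 CPM (297 to 390), and Ifi208 and Ifi213, with at most 6 UMIs in either group, were too low to compare.

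Sex-linked RNA moved with the libraries too. Xist, the RNA that silences 1 X chromosome in female cells, stood at 204 CPM in donor-library general capillary cells and had 0 UMIs in those of the recipient library. In aerocytes it stood at 5.02 and 0.211 CPM, and in venous cells at 168 CPM and 0 UMIs. Its level was thus high in the types where the members differed and low in aerocytes. By the rule used for the members, Xist was called higher in the donor library in all 3 types. These include aerocytes, where no member was called. The Y-linked genes Ddx3y, Eif2s3y, Kdm5d and Uty were not called in any of the 3 types. Of donor-library general capillary cells 16.2% held an Xist UMI, against 1.59% of donor-library aerocytes. In the 369 donor-library general capillary cells with Xist and no Y-linked UMI, Ifi204 stood at 18.5 CPM (13.1 to 25.4), Ifi208 at 66.7 CPM (56.0 to 78.9) and Ifi213 at 48.7 CPM (39.6 to 59.2). In the 1471 with a Y-linked UMI and no Xist, the levels were 43.3 CPM (39.0 to 47.9), 54.4 CPM (49.6 to 59.5) and 26.5 CPM (23.2 to 30.2). The 281 recipient-library cells with a Y-linked UMI and no Xist stood at 328 CPM (302 to 356) for Ifi204 and 4.04 CPM (1.62 to 8.32) for Ifi208, with 0 UMIs of Ifi213. Levels thus differed between the libraries among cells with a Y-linked UMI and no Xist. For Ifi204 and Ifi213 the donor-library cells with Xist lay further from the recipient library. With 1 library per group and the sex and strain of the donors not given, sex, strain and origin cannot be told apart by this split. The part of sex-linked differences in the result was not tested.

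**Figure D3:**
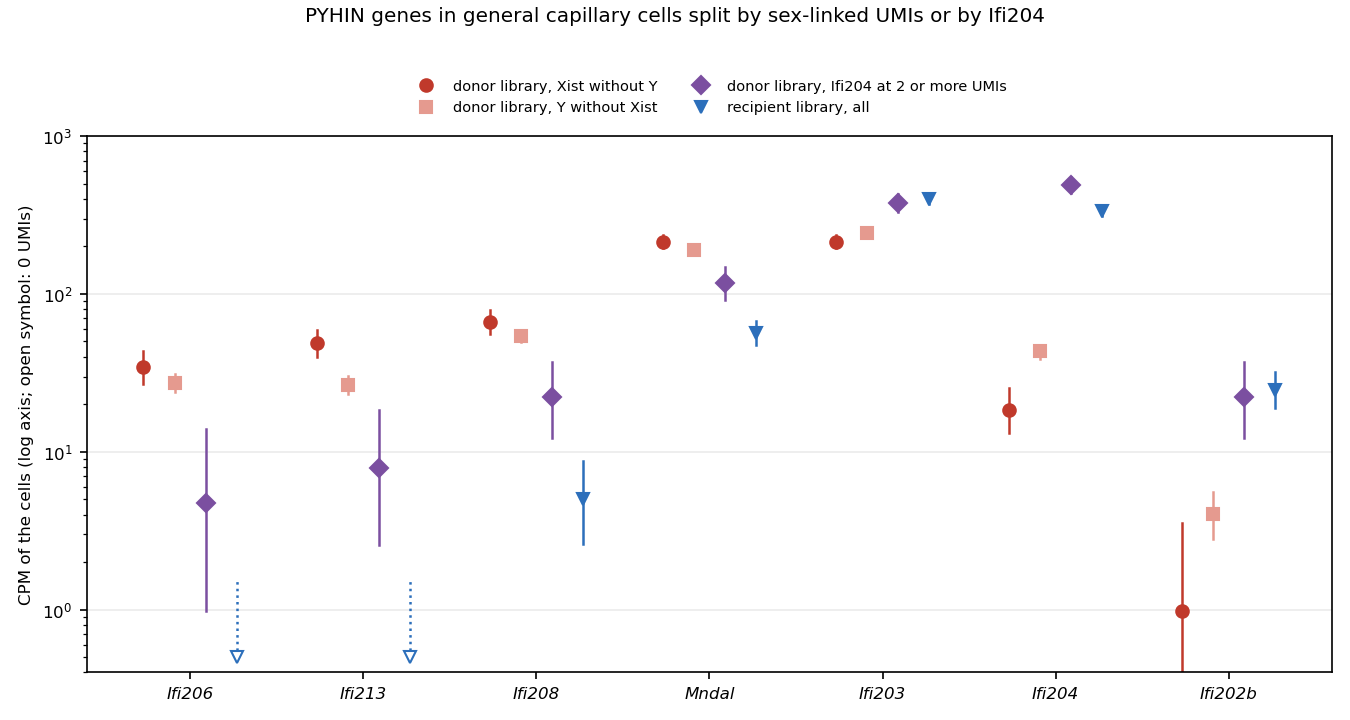
Level (CPM, log axis) of 5 members and of Ifi206 and Ifi202b in general capillary cells, for donor-library cells with Xist and no Y-linked UMI (red circles), with a Y-linked UMI and no Xist (pale squares), or with 2 or more Ifi204 UMIs (purple diamonds), and for all recipient-library cells (blue triangles). Bars are exact 95% Poisson intervals, and an open triangle with a dotted line marks 0 UMIs and the upper limit of its interval. Both sex-linked groups lie far from the recipient library for Ifi204 and Ifi208, and the purple diamonds lie between for Ifi208 and Mndal.

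The PYHIN genes outside the 9 split in the same manner. Ifi206, whose promoter was 98.9% identical to that of Ifi208, stood at 26.8 CPM (24.2 to 29.6; 393 UMIs) in donor-library general capillary cells and had 0 UMIs in those of the recipient library, at least 21.3-fold apart with the floor of 3 counts (counting interval 7.23 to 104). In aerocytes it had 15 and 7 UMIs. Ifi202b, a member without a pyrin domain that can hold back the DNA sensor Aim2, stood at 3.002 CPM (2.18 to 4.03) and 24.8 CPM (18.9 to 32.0), 8.25-fold higher in the recipient library (5.49 to 12.5). In aerocytes Ifi202b stood at 23.1 CPM (20.6 to 25.7) and 25.1 CPM (20.8 to 30.0). Ifi206 thus went with Ifi208 and Ifi213, and Ifi202b with Ifi204, each in general capillary cells and neither in aerocytes. In the 90 donor-library general capillary cells with 2 or more Ifi204 UMIs, Ifi202b stood at 22.2 CPM (12.1 to 37.3), against 1.73 CPM (1.09 to 2.62) in the cells at 0. Aim2 had at most 9 UMIs, and Ifi214 at most 8, in any of these sums.

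Genes within 2 Mb on either side of the outermost members were compared in the same way, to set the members beside their neighbours on chromosome 1. In general capillary cells 1 of 16 flanking genes with enough UMIs was called, where 3.32% of all genes were. The count for PYHIN genes, 7 of 10 with members included, comes from the contrast that chose the members, and nothing is read from it. The exception was Ackr1, a chemokine-binding receptor of venous endothelium that starts at -433 kb from the Ifi204 start, with 10 donor-library and 22 recipient-library UMIs. The median log2 ratio of the flanking genes was 0.19. In aerocytes 0 of 10 PYHIN genes were called, where 1.72% of all genes were, so nothing is read from this count. In venous cells 1 of 13 flanking genes was called, again Ackr1 at 41.9 and 125 CPM, where 2.12% of all genes were. There 4 of 6 PYHIN genes were called, but differences of this kind chose the members, and nothing is read from that count. Neighbouring members did not always share a direction: Ifi207, between Ifi208 and Ifi204, had a ratio near 1 in general capillary cells, and Ifi204 and Ifi208, on either side of it, went opposite ways.

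**Figure D4:**
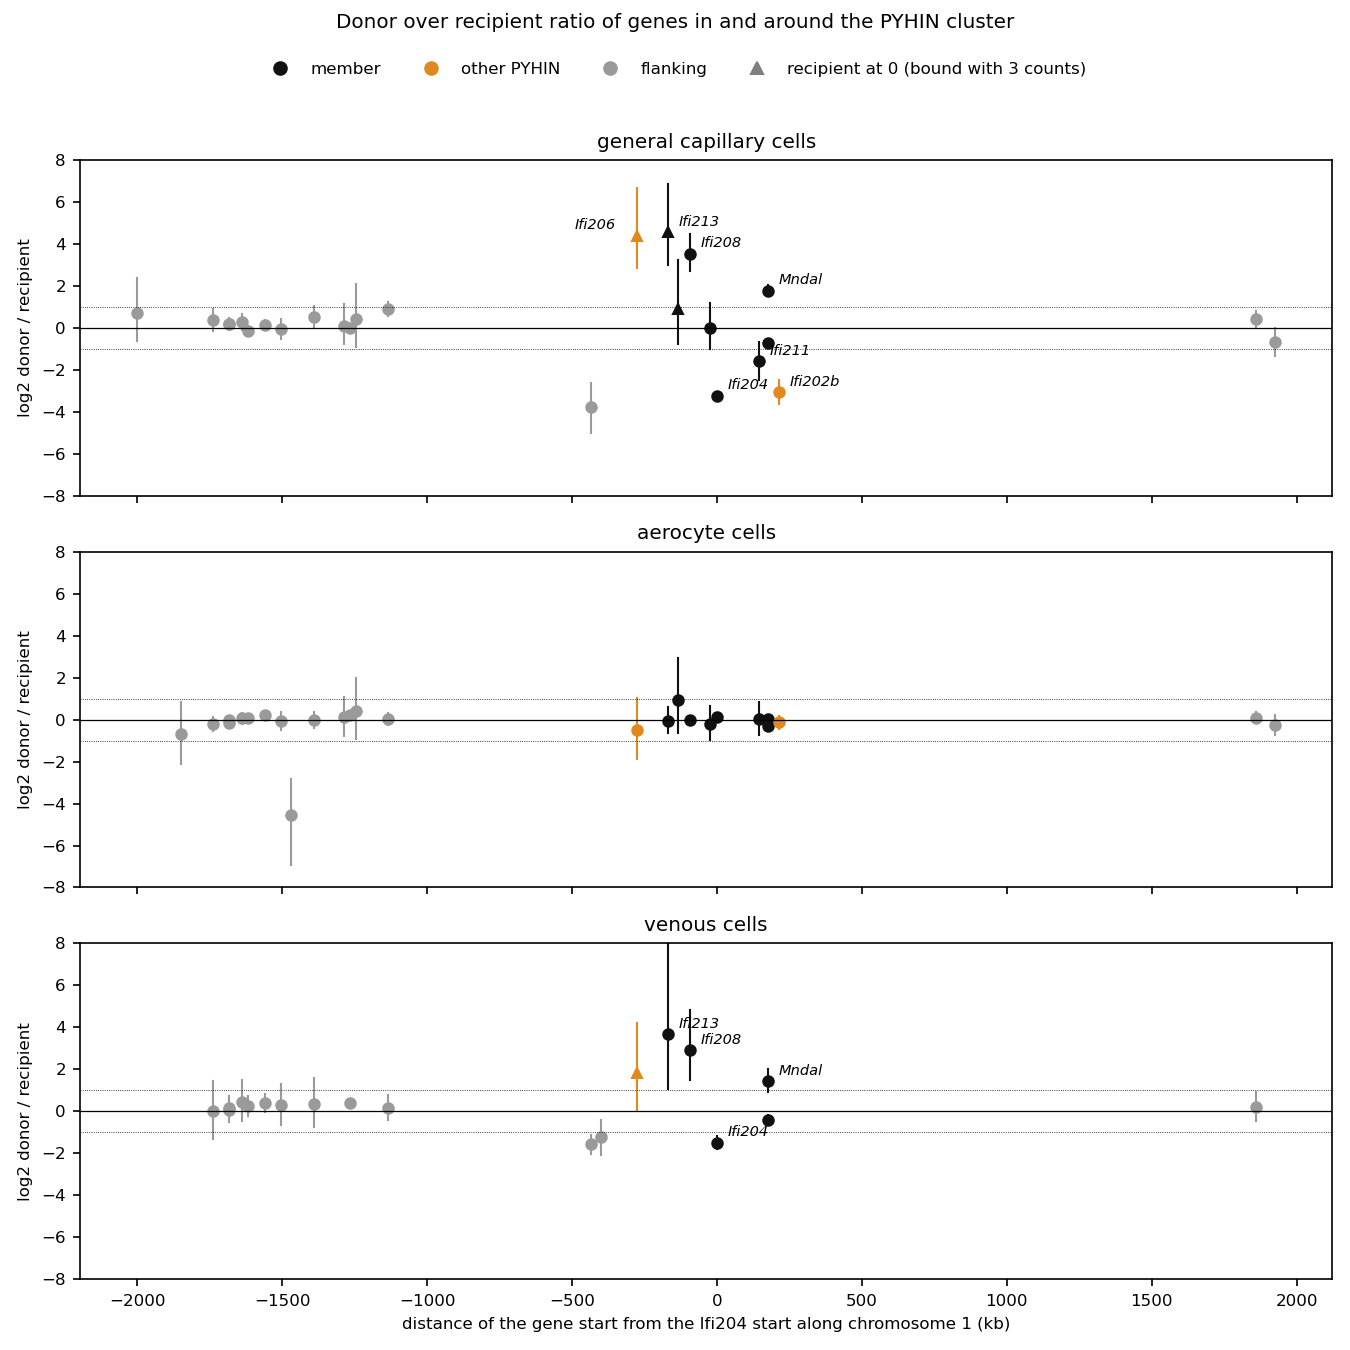
Log2 ratio of donor over recipient CPM for genes in and around the PYHIN cluster, by distance of the gene start from the Ifi204 start (kb), in general capillary, aerocyte and venous cells. Black points are the 9 genes, orange points other PYHIN genes and grey points flanking genes, triangles are bounds where the recipient library had 0 UMIs, bars are exact 95% intervals (the Ifi213 bar in venous cells leaves the axis), and dotted lines mark 2-fold. PYHIN points spread from -3.22 (Ifi204) to 4.57 (Ifi213) in general capillary cells and gather near 0 in aerocytes.

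Genes of the wider pathways around the PYHIN genes were compared by the same rule, which called 3.32% of all genes in general capillary cells. Of 17 listed genes of DNA sensing, 13 had enough UMIs in general capillary cells and 0 were called in either direction, with a median log2 ratio of -0.05. The DNA sensor Cgas stood at 14.4 CPM in the donor library and 18.9 CPM in the recipient library, its adaptor Tmem173 (STING) at 5.12 and 6.72 CPM, and the inflammasome adaptor Pycard at 58.8 and 49.5 CPM. In aerocytes 0 of 13 were called (1.72% of all genes), and in venous cells 1 of 12 (2.12% of all genes), Zbp1, a sensor of Z-form nucleic acid, at 43.3 CPM in the donor library and 11.01 CPM in the recipient library. Of 28 interferon response genes 1 was called in general capillary cells, Ifi27l2a, at 19.4 CPM in the donor library and 51.2 CPM in the recipient library, and the median log2 ratio was 0.11. In aerocytes the call was Gbp3, at 7.87 and 2.95 CPM, among 28 genes with a median of 0.17. In venous cells it was Cmpk2, at 24.9 and 6.12 CPM, among 26 genes with a median of 0.31. Isg15, a strongly induced interferon target, stood at 341 and 297 CPM in general capillary cells. With lists this short, counts of 0 or 1 lie near the share over all genes, so nothing is read from them.

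Between the capillary types the calls of the 2 lists were all toward general capillary cells. In the donor library 10 of 28 interferon response genes, among them Isg15 (98.3 CPM in aerocytes and 341 CPM in general capillary cells) and Gbp2 (32.0 and 198 CPM), were higher in general capillary cells and 0 in aerocytes, where 15.3% and 7.3% of all genes were. In the recipient library 8 of 28 were higher in general capillary cells and 0 in aerocytes, where 11% and 6.44% of all genes were. Of the DNA sensing genes 5 of 13 and 3 of 13 were higher in general capillary cells, and 0 in aerocytes.

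The genes most like Ifi204 and Ifi208 were sought by Pearson correlation of log2(CPM + 1) over the 11 sums of a type and library with at least 50 cells, among 9637 genes. The sums share 2 libraries and their depths, so the correlations are a description. Closest to Ifi204 were Serpina3f (r = 0.97), H2-T23 (0.95), Rnf125 (0.94), Serpina3g (0.93) and Vamp5 (0.93). In general capillary cells Serpina3f, a serine protease inhibitor, stood at 21.4 CPM in the donor library and 52.5 CPM in the recipient library, and Serpina3g at 32.7 and 92.8 CPM. The others differed less there: H2-T23 stood at 1011 and 1367 CPM, Rnf125 at 44.2 and 47.4 CPM and Vamp5 at 99.0 and 114 CPM. Closest to Ifi208 were Xdh (0.96), Krt80 (0.95), Ykt6 (0.94), Fam57a (0.93) and Cdkn2a (0.93). Xdh, the enzyme that forms uric acid, stood at 258 and 136 CPM in general capillary cells and at 249 and 258 CPM in aerocytes, a smaller gap than that of Ifi208. Among members over the same sums, r was 0.89 between Ifi208 and Ifi213, 0.93 between Ifi203 and Ifi204 and 0.34 between Ifi204 and Ifi213. Other pairs that went opposite ways in general capillary cells also had positive values. For Mndal r was 0.91 with Ifi203 and 0.77 with Ifi204, and for Ifi208 it was 0.56 with Ifi204 and 0.76 with Ifi203. Ifi203 and Ifi213 had 0.58, and Mndal had 0.81 with Ifi208 and with Ifi213. These values thus do not separate the members by direction.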

How the data were processed

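The deposited matrices hold raw counts of UMIs, by gene and barcode. The authors made them with Cell Ranger 4.0.0 per the file headers and the submitters' processing notes, which also name the mm10 build. The labels' protocol names another Cell Ranger version, and the chemistry and the handling of overlapping genes are not given in the sources used here. The authors' cell labels were not used.

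Members, lists and markers were chosen with earlier results of these data known. Every member is named. Of the listed genes, those past the 2-fold rule are named, with a few chosen for their role after their values were seen. The flanking genes named were among those called, and some results on listed or flanking genes are not reported here.

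Cells beyond 3 scaled median absolute deviations of their library in genes, UMIs or mitochondrial share, and barcodes found in both libraries, were left out. A class needed at least 4 marker UMIs and 3 times those of the other classes, with fewer than 3 leukocyte UMIs, and the capillary types used the same minimum and ratio. Arterial and lymphatic cells needed 3 UMIs from 2 markers, venous cells 4 UMIs from 3 markers. Doublets were limited by these gates. Scrublet (scanpy 1.11.5) was an alternative, with the highest scores removed (5.06% of donor and 3.03% of recipient barcodes), because its automatic threshold marked 0.0158% of the donor barcodes, a failed call.

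Counts were summed per type and library and scaled to CPM. Ratios carry exact conditional intervals and shares exact Clopper-Pearson intervals, all at 95%. A library at 0 took a floor of 3 counts over the group. With 1 library per group no test was made. Types needed 50 cells in each library. Positions came from GENCODE M21, of the GRCm38 build that mm10 names, and promoter alignments from Biopython 1.88. The count comparison was tested on simulated data. TMM factors came from edgeR 4.0.16. Python 3.11.15 with numpy 2.4.6, scipy 1.17.1 and pandas 2.3.3 was used.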

Additional observations from a re-analysis of the deposited data

How the results depend on the processing

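The 29 donor over recipient ratios of members, Ifi202b and Ifi206 in 3 cell types were recomputed under 9 alternatives: shared barcodes kept, no cell filter, a looser and a stricter gate, TMM scaling, the mean of cell CPM, minimums of 1 and 50 counts, and Scrublet removal. All 261 values stayed inside the interval first reported, but part of this was fixed in advance. The minimums of 1 and 50 counts change only the calls and leave every ratio as it was. Under the mean of cell CPM, a ratio with a library at 0 also keeps its first value. No called ratio changed sign, while 4 uncalled ratios near 0 did under at least 1 alternative (Ifi207 in general capillary cells, and Ifi208, Ifi213 and Mndal in aerocytes). Of 11 called ratios 9 kept their call under all alternatives. Ifi213 in venous cells lost it at a minimum of 50 counts. Ifi211 in general capillary cells lost it with shared barcodes kept, with a gate ratio of 5 and a minimum of 8 UMIs, and with the mean of cell CPM, so that the number of members higher in the recipient library was 1 in place of 2 under each of these 3. Ifi204 in general capillary cells ranged from -3.33 to -3.14, Ifi208 from 3.46 to 3.68 and Mndal from 1.75 to 1.83. No paired analysis was possible because each group holds 1 library. The pericyte, arterial and venous values rest on few cells, and the values of Ifi205, Ifi207, Ifi209 and Ifi211 on few UMIs.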
